A study of Mus musculus with 12 samples.

Results

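Imprinted genes are genes that mammals express from the copy inherited from 1 parent, while the other copy is kept silent. Of 40 listed mouse imprinted genes, 33 had a probe set annotated with their symbol alone among the 28853 probe sets of the array, and 1 probe set stood for each. H19, Snrpn, Gnas, Mirg, Kcnq1ot1, Zrsr1 and Zfp264 were not analysed here. The 33 measured genes comprised 19 of 23 listed as paternally expressed and 14 of 16 listed as maternally expressed, by textbook assignment. The array measured the transcripts of both alleles together, so the allele of origin was not observed.

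Messenger RNA had been profiled on 1 array per culture in 12 cultures of embryonic fibroblasts at passage 5, derived from male C57BL/6J embryos (E12.5 to E14.5). The groups were mTERT KO, fibroblasts of the first generation (G1) without telomerase reverse transcriptase, mTERT WT, their wild types, mTR KO, first-generation fibroblasts without the telomerase RNA, and mTR WT, their wild types, with 3 cultures each. Knockout and wild-type embryos of a set were littermates, and the 3 sets were independent. The comparisons asked whether loss of either telomerase subunit altered expression in otherwise untreated cells. Values are deposited log2 signals, so a difference of 1 is a doubling, and the brightness of different probe sets cannot be set against each other.

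Imprinted genes lie in domains, in each of which a methylated control region inherited from 1 parent sets which genes are read from which chromosome. Many paternally expressed genes, such as Igf2, a growth factor, promote embryonic growth, and many maternally expressed genes, such as Igf2r, the receptor that clears IGF2, and Cdkn1c, a cyclin-dependent kinase inhibitor, restrain it. Most are highly expressed in the embryo and its mesenchyme and are turned down after birth. Plagl1, a zinc-finger transcription factor also called Zac1, is known in mouse to act on other imprinted genes.

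Before the results, 3 facts of the cultures bear on them. Tert read 4.99, 4.83 and 4.75 in mTERT KO cultures, against 5.72, 5.74 and 5.51 in mTERT WT cultures, while Terc lay below background in mTR KO and mTR WT cultures alike, so the mTR knockout could not be checked on the array. All 12 fibroblast markers of a list were above background in every culture, and so were all 14 macrophage markers. The mean log2 signal of the macrophage list ran from 7.75 to 9.54 in mTERT KO, 8.02 to 9.63 in mTERT WT, 7.79 to 9.85 in mTR KO and 6.92 to 9.00 in mTR WT cultures, a wide spread within each group. Of 7 endothelial markers 5 were above background in no culture. In such bulk samples, fewer cells of a type and less RNA per cell cannot be told apart. In the mTERT line the knockout and wild-type culture of the same number deviated together from their group means (correlations of 0.674, 0.733 and 0.790 over probe sets), and in the mTR line they did not (−0.156, 0.289 and −0.377). Of differently numbered mTR cultures, mTR KO 1 and mTR WT 3 correlated at 0.372 and mTR KO 3 and mTR WT 1 at 0.319; no label pairs them so, and values that use the numbers of the mTR line are given with this limit.

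Promoters are shown for 4 genes whose signals moved together over the cultures in 2 pairs, Peg3 with Zim1 and Mest with Plagl1. Each sequence, from RefSeq, holds 250 bases before and 50 after an annotated start, read 5′ to 3′ on the gene's strand. Capitals mark CG, the dinucleotide whose methylation carries imprints. For Mest, which has 3 annotated starts, the window with the most CG is given.
Peg3, GRCm38.p6 chr7:6730370-6730669, minus strand: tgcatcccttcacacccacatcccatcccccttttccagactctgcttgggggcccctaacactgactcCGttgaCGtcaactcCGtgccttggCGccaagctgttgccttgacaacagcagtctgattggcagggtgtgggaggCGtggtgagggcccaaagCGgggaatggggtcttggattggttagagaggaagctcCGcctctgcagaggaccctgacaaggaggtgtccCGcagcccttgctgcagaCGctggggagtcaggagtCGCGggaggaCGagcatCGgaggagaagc
Zim1, GRCm38.p6 chr7:6696383-6696682, minus strand: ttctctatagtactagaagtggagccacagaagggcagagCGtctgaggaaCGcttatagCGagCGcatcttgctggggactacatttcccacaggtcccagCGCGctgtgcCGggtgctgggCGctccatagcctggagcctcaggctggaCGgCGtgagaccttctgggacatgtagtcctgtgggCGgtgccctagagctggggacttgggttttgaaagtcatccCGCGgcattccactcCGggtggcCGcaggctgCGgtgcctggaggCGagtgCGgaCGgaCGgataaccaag
Mest, GRCm38.p6 chr6:30737800-30738099, plus strand: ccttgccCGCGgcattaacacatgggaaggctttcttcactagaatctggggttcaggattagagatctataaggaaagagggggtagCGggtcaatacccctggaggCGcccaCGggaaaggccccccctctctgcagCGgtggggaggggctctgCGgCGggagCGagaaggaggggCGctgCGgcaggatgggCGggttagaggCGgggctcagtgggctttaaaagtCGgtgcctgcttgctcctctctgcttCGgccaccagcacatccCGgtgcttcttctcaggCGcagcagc
Plagl1, GRCm38.p6 chr10:13090582-13090881, plus strand: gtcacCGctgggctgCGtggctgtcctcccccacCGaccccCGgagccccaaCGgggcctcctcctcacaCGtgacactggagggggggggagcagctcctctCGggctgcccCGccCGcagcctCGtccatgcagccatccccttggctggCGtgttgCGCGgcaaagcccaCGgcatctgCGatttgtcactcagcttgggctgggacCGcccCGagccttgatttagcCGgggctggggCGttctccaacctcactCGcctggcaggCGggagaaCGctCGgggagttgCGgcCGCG
These windows held 13, 20, 17 and 26 CG, in that order. Windows were found for 27 of the 33 genes, 42 in all, with a median of 17 CG, and 30 of them held 10 or more. Over all 32851 promoter windows of the table the median was 7, and 43.5% held 10 or more. The Peg3 window overlapped that of Usp29, which starts in the opposite direction, over 263 bases. TATAAA on either strand, which overlaps no CG, was present in 6 of the 42 windows and in 13.6% of all windows; none of the 4 shown held it.

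Of the 33 genes, 19 were above background in all 12 cultures, 10 in some and 4 in none. Background was the 95th percentile of 1023 odorant receptor probe sets on the same array, which lay between 4.93 and 5.09. Genes above it throughout included the growth factor gene Igf2, its receptor Igf2r, the insulin and IGF receptor adaptor Grb10, the non-coding RNAs Meg3, Rian and Airn, the cell cycle inhibitor Cdkn1c, and the zinc-finger genes Peg3 and Plagl1. They also included Mest, Ndn, Sgce, Peg10, Impact, Mcts2, Osbpl5, Tssc4, Inpp5f and Dlk1, a Notch-like membrane protein of immature cells. Usp29, Begain, Ascl2, a placental transcription factor, and Kcnq1, a potassium channel gene, were above background in no culture. Zim1 and Magel2 were above it in 9 cultures, Nnat in 11, Rtl1 and Phlda2 in 7, Nap1l5 and Slc22a18 in 5, Ppp1r9a in 3, and Asb4 and Dio3 in 1. Domains were thus split: in the Dlk1-Meg3 domain Dlk1, Meg3 and Rian stood above background throughout, whereas Begain did in no culture, and in the Peg3 domain Peg3 did and Usp29 did not.

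**Figure D1:**
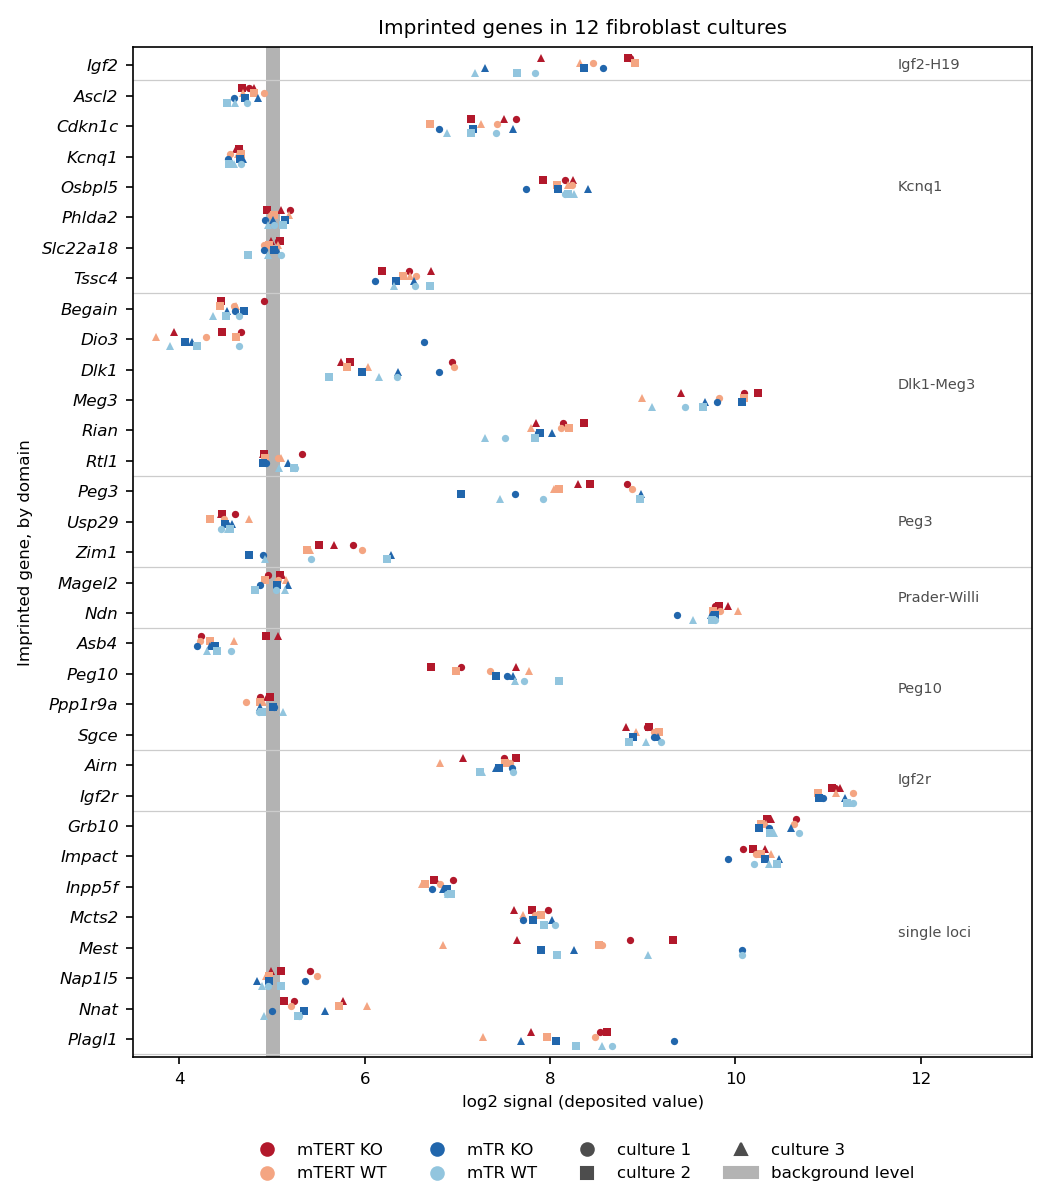
Log2 signal (horizontal axis) of the 33 imprinted genes (rows, grouped by domain) in 12 cultures; colour gives the group, symbol the culture number, and the grey band the range of the background level over the arrays. Of these genes 19 lie right of the band in all 12 cultures, and Mest, Plagl1, Peg3 and Igf2 spread widely within groups; rows are different probe sets and are not to be ranked by brightness.

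Signals of many of the listed imprinted genes spread widely between cultures of the same group. Among the 19 genes above background throughout, the median within-group SD was 0.22, against 0.13 over all 15387 probe sets that were above background in all 12 cultures. The range over the 12 cultures exceeded 1 for 8 of the 19 genes (42.1%), against 9.8% of those probe sets. Igf2r, Grb10, Sgce, Mcts2 and Inpp5f had ranges under 0.5. Of these, the within-group SD was below that of the median probe set for Igf2r (0.12) and Inpp5f (0.09) and above it for Mcts2 (0.13), Sgce (0.15) and Grb10 (0.18). Further imprinted genes are set beside the list below. Among those above background throughout, Pon3 spanned most, from 7.55 in mTERT WT 1 to 8.49 in mTERT WT 3. Zdbf2 of these further genes, above background in 11 cultures, spread more widely, from 4.93 in mTR KO 1 to 6.39 in mTERT WT 1.

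Mest, a paternally expressed gene of the mesoderm that encodes a hydrolase-like protein, had the widest range, 3.23, a 9.41-fold span. It read 8.86, 9.33 and 7.64 in mTERT KO cultures 1 to 3, against 8.56, 8.52 and 6.84 in mTERT WT cultures, and 10.07, 7.91 and 8.26 in mTR KO cultures, against 10.07, 8.07 and 9.06 in mTR WT cultures. The highest cultures, mTR KO 1 and mTR WT 1, and the lowest, mTERT WT 3, lay in 3 different groups, and knockouts overlapped with wild types in both lines. Plagl1 spanned a range of 2.05. It read 8.54, 8.61 and 7.79 in mTERT KO cultures 1 to 3, against 8.48, 7.97 and 7.28 in mTERT WT cultures, and 9.33, 8.06 and 7.69 in mTR KO cultures, against 8.66, 8.28 and 8.56 in mTR WT cultures. Its highest culture was again mTR KO 1 and its lowest again mTERT WT 3.

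Peg3, a paternally expressed zinc-finger gene, spanned 1.94. It read 8.83, 8.43 and 8.30 in mTERT KO cultures 1 to 3, against 8.88, 8.10 and 8.04 in mTERT WT cultures, and 7.62, 7.04 and 8.98 in mTR KO cultures, against 7.93, 8.97 and 7.45 in mTR WT cultures. In the mTR line 1 knockout culture and 1 wild-type culture stood high while the other 4 lay below 8, so the groups overlapped. Zim1, a maternally expressed zinc-finger gene next to Peg3, read 5.88, 5.50 and 5.67 in mTERT KO cultures 1 to 3, against 5.97, 5.38 and 5.40 in mTERT WT cultures, and 4.90, 4.75 and 6.28 in mTR KO cultures, against 5.42, 6.24 and 4.92 in mTR WT cultures. The same 4 cultures, mTR KO 3, mTR WT 2 and both mTERT cultures of number 1, were the highest for both genes, which are read from opposite parental copies. Over the 12 cultures, with group means removed, Peg3 and Zim1 correlated at r = 0.977 and rho = 0.909, at 0.936 within the mTERT and 0.985 within the mTR line, and at 0.964 without the cultures farthest from the median, mTR KO 2 and mTR KO 3. Mest and Plagl1 correlated at r = 0.874 and rho = 0.846, at 0.937 within the mTERT and 0.828 within the mTR line, and at 0.886 without mTERT WT 3 and mTR WT 1. Both pairs were picked after their values had been seen, same-numbered mTERT cultures are not independent, and no test is given. Zim1 was at background in mTR KO 1, mTR KO 2 and mTR WT 3, where its signal is an upper bound.

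**Figure D2:**
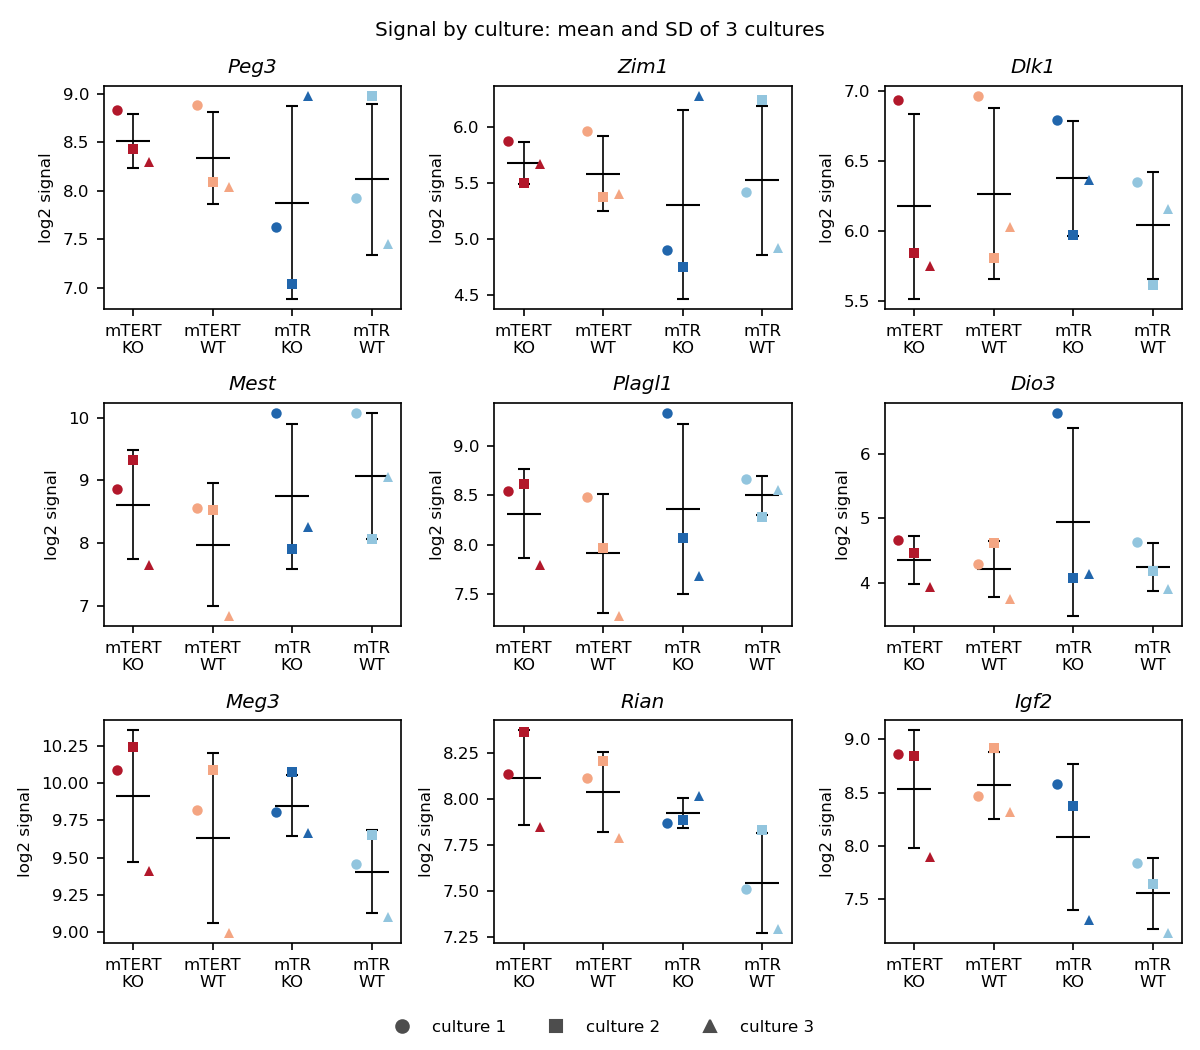
Log2 signal (vertical axis) of 9 imprinted genes in each culture, by group (horizontal axis); symbols give the culture number, black bars the mean ± SD of 3 cultures. Peg3 and Zim1 were highest in mTR KO 3 and mTR WT 2, Mest in mTR KO 1 and mTR WT 1, and Dio3 stood above background in mTR KO 1 alone.

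Of 7 pairs of domain neighbours listed for this question, 5 had probe sets for both genes. Meg3 and Rian, non-coding RNAs transcribed in the same direction from the maternal chromosome, correlated at r = 0.837 over 12 cultures with group means removed (exact permutation within groups, two-sided p = 0.00772, adjusted over the 5 pairs 0.0386) and at rho = 0.804 (p = 0.0131, adjusted 0.0656). The r was 0.960 within the mTERT and 0.624 within the mTR line, and 0.762 without mTERT WT 3 and mTR WT 3. When the numbers of knockout and wild type of a line were moved together, which keeps same-numbered cultures together, the exact permutation p was 0.0278, the smallest that 36 arrangements allow, and the adjusted p 0.139, so the call was lost. Dlk1 and Meg3, read from opposite parental copies of the same domain, had an r of 0.0471 (rho = −0.308, exact permutation p = 0.938 and 0.454). Within the mTERT line their r was 0.241, and within the mTR line −0.594. Peg10 and Sgce, which share a promoter region on the paternal copy, had an r of −0.664 (rho = −0.420, exact permutation p = 0.0455 and 0.206, adjusted 0.114 and 0.478), −0.956 within the mTERT and −0.328 within the mTR line, and −0.618 without mTERT KO 2 and mTERT WT 2. Ndn and Magel2 (r = 0.440, exact permutation p = 0.269) and Peg3 and Usp29 (r = 0.167, exact permutation p = 0.590) did not pass, and Usp29 was at background throughout. Ndn and Magel2 had an r of 0.889 within the mTERT and 0.270 within the mTR line. For Peg3 and Usp29 these were 0.000503 and 0.699.

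**Figure D3:**
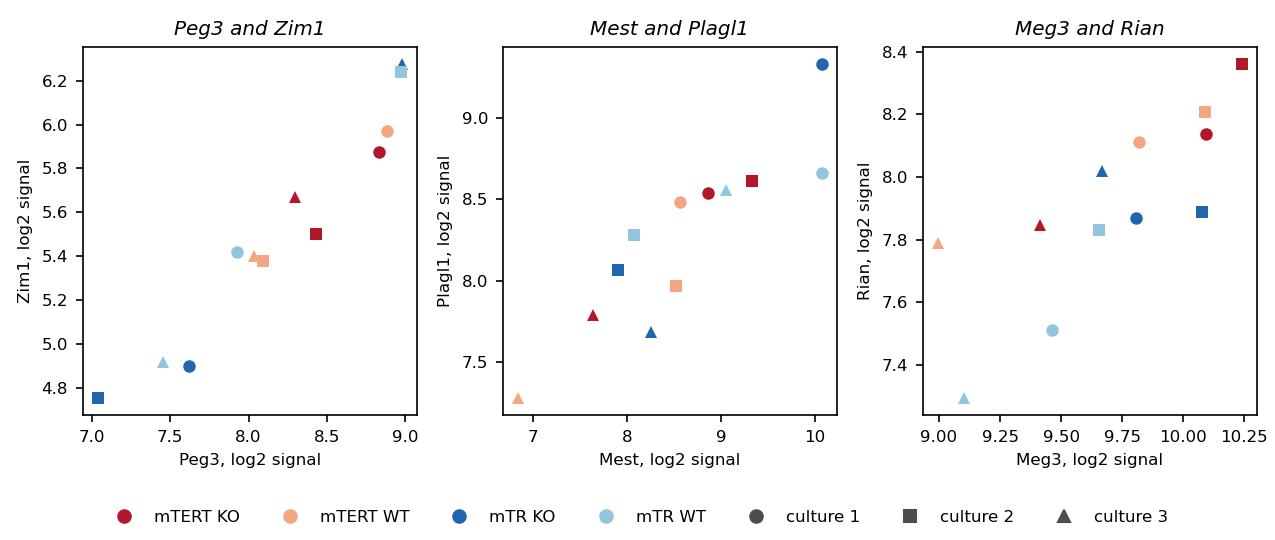
Log2 signals of 3 gene pairs against each other, 1 point per culture; colour gives the group and symbol the culture number. Zim1 followed Peg3 over all 4 groups (r = 0.969 of the signals themselves), Plagl1 followed Mest (r = 0.896), and Rian followed Meg3 less closely (r = 0.789).

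In the mTERT line the spread followed the culture number more than the genotype. For the 19 genes above background throughout, the number accounted for a median of 82.0% of the variation among the 6 cultures and the genotype for 6.4%. The shares are not adjusted for degrees of freedom. The number has more of these than the genotype, so its share is expected to be larger even without any effect. Over the 15387 probe sets above background the medians were 67.2% and 6.0%. In the mTR line, where numbers did not pair, the medians for the genes were 42.4% and 16.7%, against 37.3% and 15.7% over the probe sets.

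Dlk1 showed it most plainly among genes above background. It read 6.94, 5.84 and 5.75 in mTERT KO cultures 1 to 3, against 6.96, 5.81 and 6.03 in mTERT WT cultures 1 to 3. Both cultures of number 1 thus stood near 7 and the other 4 near 6, and number accounted for 97.5% of the variation. Among mTR cultures Dlk1 read 6.80, 5.97 and 6.36 in mTR KO, against 6.35, 5.61 and 6.16 in mTR WT cultures, with overlapping groups. Grb10 and Rian followed with 96.8% and 94.3%, and at the other end stood Igf2r with 58.5%. Peg10, a retrotransposon-derived gene of placental growth, read 7.04, 6.71 and 7.63 in mTERT KO, against 7.35, 6.99 and 7.77 in mTERT WT cultures, with number accounting for 88.7%. It was lowest in both cultures of number 2 and highest in both of number 3.

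**Figure D4:**
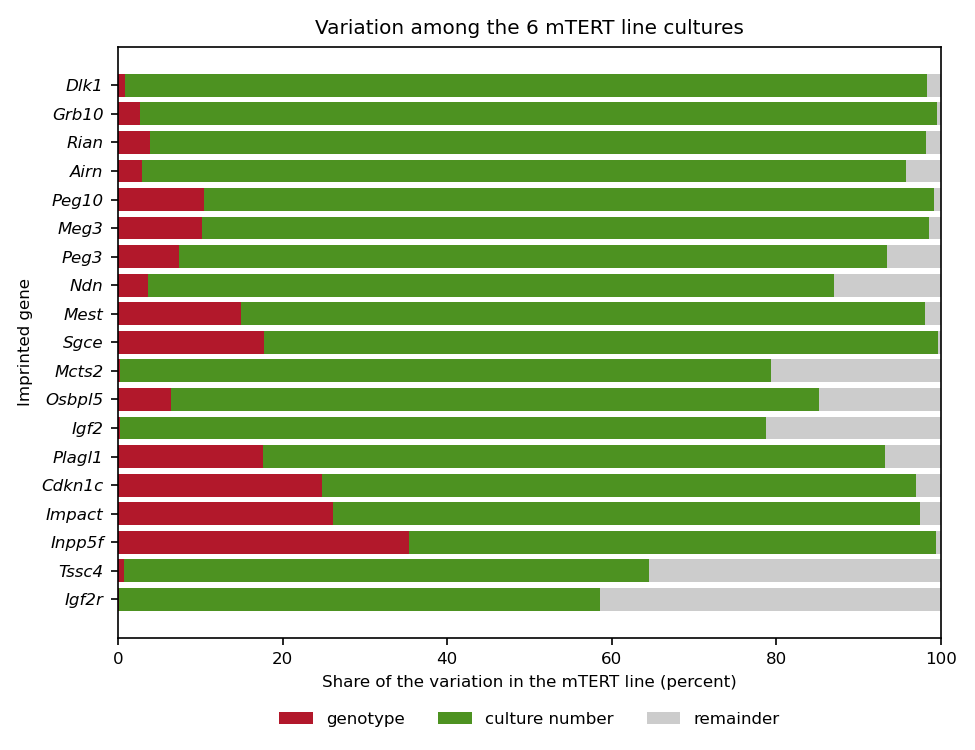
Share of the variation among the 6 mTERT line cultures (horizontal axis, percent) that went with genotype, culture number and neither, for the 19 imprinted genes above background throughout (rows). Culture number took 97.5% for Dlk1 and 58.5% for Igf2r, and genotype at most 35.4%, for Inpp5f.

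Cell type markers moved with the same numbers. The macrophage list averaged 7.75 in mTERT KO 1 and 8.02 in mTERT WT 1, where Dlk1, Grb10 and Peg3 were highest, and from 9.30 to 9.63 in the other 4 cultures of the line. The fibroblast list averaged 10.63 in mTERT KO 3 and 10.50 in mTERT WT 3, where Mest, Plagl1, Meg3 and Airn were lowest, and from 11.10 to 11.34 in the other 4. Across lines the match did not hold throughout. Peg3 stood high in mTR KO 3 (macrophage list 7.79) and mTR WT 2 (8.56). It read 7.93 in mTR WT 1, where the macrophage list was lowest (6.92). Dlk1 was the highest of the mTR line (6.80) in mTR KO 1, where the macrophage list was the highest of all cultures (9.85). In mTR KO 3 and mTR WT 1, where that list was low, Dlk1 read 6.36 and 6.35. The fibroblast list averaged 11.42, 10.83 and 10.82 in mTR KO, against 11.01, 10.86 and 10.88 in mTR WT cultures. Plagl1 had the same order over these cultures, from 9.33 in mTR KO 1 to 7.69 in mTR KO 3. Mest was highest of the line in mTR WT 1 and mTR KO 1 (10.07 in both) and lowest in mTR KO 2 (7.91). Meg3, however, was highest of the line in mTR KO 2 (10.08), and Airn in mTR WT 1 (7.60). The part of the cell mixture in these levels was not tested.

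Dio3, the gene of the deiodinase that inactivates thyroid hormone, at the far end of the Dlk1-Meg3 domain, stood above background in 1 culture only. It read 6.64, 4.06 and 4.14 in mTR KO cultures, against 4.64, 4.19 and 3.90 in mTR WT cultures, and between 3.75 and 4.66 in the mTERT line. The fitted mTR difference of 0.70 ± 0.56 (limma, adjusted p = 0.858) was −0.14 without mTR KO 1. That culture was also the highest for Plagl1 and, level with mTR WT 1, for Mest. It was the lowest for Impact, Ndn, Osbpl5 and Tssc4. Of all cultures it had the highest macrophage, proliferation, fibroblast and adipocyte marker lists (9.85, 8.76, 11.42 and 5.74). Its smooth muscle, skeletal muscle and epithelial marker lists were the lowest (9.02, 5.34 and 4.82). Of the same domain, Dlk1 read 6.80 there, the highest of the mTR line, and Meg3 9.80.

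For loss of mTERT, none of the 33 genes passed the test. With limma and Benjamini-Hochberg adjustment over all 28853 probe sets 0 of 33 passed a 5% false discovery rate (0.00347% of all probe sets did), 0 had an unadjusted p below 0.05 (1.92% of all probe sets), and for 0 of 33 were the knockout and wild-type cultures without overlap (5.97% of all). The median difference, mTERT KO minus mTERT WT, was 0.02 over the 33 genes and 0.00 over all probe sets, with 21 genes above and 12 below 0. The adjusted p was 1 for every member. Leaving out some single culture turned the sign of 20 of the 33 differences.

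Since numbers paired the mTERT cultures, the differences within pairs were also read. Of the 33 genes 9 were higher and 3 lower in the knockout in 3 of 3 pairs, 36.4% with a common direction, against 25.1% of all probe sets. Mest differed by 0.30, 0.80 and 0.80 in pairs 1 to 3, Plagl1 by 0.06, 0.64 and 0.51, Meg3 by 0.27, 0.15 and 0.42, Cdkn1c by 0.21, 0.45 and 0.24 and Peg10 by −0.31, −0.27 and −0.14. Mest and Plagl1 differed least in pair 1. In the same comparison, the differences were below 0 for 8 of 8 smooth muscle genes (median −0.19) and 13 of 14 macrophage genes (median −0.14), with 0 past the test in limma. By pair the macrophage list was mixed, with means of 7.75, 9.54 and 9.30 in mTERT KO, against 8.02, 9.35 and 9.63 in mTERT WT cultures. The fibroblast list averaged 11.28, 11.34 and 10.63, against 11.17, 11.10 and 10.50, higher in the knockout in each pair. Of its genes, 7 of 12 had a difference above 0, with a median of 0.02 and a largest difference of 1.21. The part of these lists was not tested. A fit of the 6 mTERT arrays with the number as a block, chosen after the data were seen, gave 7 of 33 genes an unadjusted p below 0.05 (5.56% of all probe sets): Mest (0.64 ± 0.11), Cdkn1c, Meg3, Plagl1, Peg10, Asb4 and Nnat, with the smallest adjusted p at 0.294 for Mest. With the number as a block in the fit of all arrays it was 3 of 33 (2.73% of all), Mest, Meg3 and Asb4, each with an adjusted p of 1. Asb4, a maternally expressed ubiquitin ligase subunit, passed background in mTERT KO 3 alone, and Nnat in 11 cultures.

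The 3 genes with the smallest p in the plain fit were Asb4, Inpp5f and Cdkn1c. Asb4 read 4.23, 4.93 and 5.06 in mTERT KO, against 4.22, 4.33 and 4.59 in mTERT WT cultures (0.37 ± 0.18, limma, adjusted p = 1). Inpp5f, a phosphoinositide phosphatase gene with an imprinted variant, read 6.95, 6.75 and 6.77 in mTERT KO, against 6.82, 6.64 and 6.62 in mTERT WT cultures (0.13 ± 0.08, limma, adjusted p = 1). Cdkn1c read 7.64, 7.15 and 7.50 in mTERT KO, against 7.43, 6.70 and 7.25 in mTERT WT cultures (0.30 ± 0.23, limma, adjusted p = 1). The groups overlapped for all 3 genes.

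For loss of mTR, again none of the 33 genes passed. With limma 0 of 33 passed (0.0% of all probe sets), the smallest adjusted p was 0.839, 2 had an unadjusted p below 0.05 (6.06% of the genes, 5.82% of all probe sets), and groups did not overlap for 5 (15.2% of the genes, 11.4% of all). The shares of small p values thus lay close to that of the whole table. The median difference, mTR KO minus mTR WT, was 0.01 over the 33 genes and 0.00 over all probe sets, with 17 genes above and 16 below 0. The sign of 18 of the 33 differences turned when some single culture was left out. With the number as a block, although numbers did not pair these cultures, 6 of 33 had an unadjusted p below 0.05 in the fit of all arrays (8.49% of all probe sets) and 4 of 33 in a fit of the mTR arrays alone, added after the data were seen (4.86% of all), with the smallest adjusted p at 0.306 and 0.866 in these limma fits. Differences of marker genes in this comparison were above 0 for 14 of 14 macrophage genes (median 0.75) and 7 of 7 proliferation genes (median 0.26) and below 0 for 8 of 8 smooth muscle genes (median −0.40), and 0 of them passed with limma. Their part in the values below was not tested.

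Rian and Meg3 stood higher in all mTR KO than in all mTR WT cultures. Rian read 7.87, 7.89 and 8.02 in mTR KO, against 7.51, 7.83 and 7.29 in mTR WT cultures (0.38 ± 0.16, limma, adjusted p = 0.839). Meg3 read 9.80, 10.08 and 9.67 in mTR KO, against 9.46, 9.65 and 9.10 in mTR WT cultures (0.44 ± 0.28, limma, adjusted p = 0.84). The gap between the closest cultures was small for both, 9.67 in mTR KO 3 against 9.65 in mTR WT 2 for Meg3. In the mTERT line Meg3 read 10.09, 10.24 and 9.41 in mTERT KO, against 9.82, 10.09 and 9.00 in mTERT WT cultures, and Rian 8.14, 8.36 and 7.85 in mTERT KO, against 8.11, 8.21 and 7.79 in mTERT WT cultures. Averaged over both lines, Rian differed by 0.23 ± 0.11 and Meg3 by 0.36 ± 0.20 (limma, adjusted p = 0.985 for each).

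Igf2r was lower in all mTR KO than in all mTR WT cultures. It read 10.95, 10.90 and 11.19 in mTR KO, against 11.27, 11.21 and 11.22 in mTR WT cultures (−0.22 ± 0.10, limma, adjusted p = 0.839). Airn, the paternal non-coding RNA that silences Igf2r on its own chromosome, read 7.59, 7.45 and 7.42 in mTR KO, against 7.60, 7.25 and 7.26 in mTR WT cultures, with overlapping groups, and over the 12 cultures with group means removed it correlated with Igf2r at r = −0.0730, a pair also picked after its values had been seen. Peg10 read 7.53, 7.41 and 7.60 in mTR KO, against 7.72, 8.10 and 7.62 in mTR WT cultures (−0.30 ± 0.24, limma adjusted p = 0.858), and Inpp5f 6.73, 6.89 and 6.84 in mTR KO, against 6.89, 6.93 and 6.90 in mTR WT cultures (−0.09 ± 0.08, limma adjusted p = 0.865); neither overlapped. Averaged over both lines Peg10 differed by −0.27 ± 0.17 (limma adjusted p = 0.985), and 0 of 33 genes had an unadjusted p below 0.05 in that contrast (4.09% of all probe sets).

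The effects of the 2 knockouts differed past the test for 0 of 33 genes with limma (0.0% of all probe sets), and 0 had an unadjusted p below 0.05 (3.34% of all). The smallest p values for the mTR effect minus the mTERT effect were those of Inpp5f (−0.21 ± 0.11), Asb4 (−0.48 ± 0.26) and Igf2r (−0.23 ± 0.14), each with a limma adjusted p of 1. Asb4 was at background in every mTR culture and in all but 1 of the mTERT line, so its value compares signals that are upper bounds. In this fit, which leaves out the culture number, standard errors were large for the genes that spread most: −0.96 ± 0.99 for Mest and −0.42 ± 0.68 for Peg3. With the number as a block within lines, Mest differed by 0.64 ± 0.16 in the mTERT and −0.32 ± 0.16 in the mTR line. Neither passed the adjusted threshold in limma, and the mTR numbers are not known to pair. For Peg3 the SE with that block was 0.52 in each line.

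Wild types of the lines were set against each other as a measure of differences without any knockout. With limma 0 of 33 genes passed between mTERT WT and mTR WT (0.0173% of all probe sets), 3 had an unadjusted p below 0.05 (9.09% of the genes, 6.78% of all probe sets) and 3 did not overlap (9.09% of the genes, 13.1% of all). Igf2 read 8.46, 8.92 and 8.32 in mTERT WT, against 7.84, 7.64 and 7.18 in mTR WT cultures, a difference of 1.01 ± 0.35, or 2.02-fold (limma, adjusted p = 0.584). It read 8.86, 8.84 and 7.90 in mTERT KO and 8.58, 8.37 and 7.30 in mTR KO cultures. Igf2 in mTR KO cultures 1 and 2 thus lay within the range of the mTERT line, and mTR KO 3 with the mTR wild types. Its knockout differences were −0.04 ± 0.35 in the mTERT line (limma, adjusted p = 1) and 0.53 ± 0.35 in the mTR line (limma, adjusted p = 0.844).

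Rian differed between the wild types by 0.49 ± 0.16, mTERT WT minus mTR WT (limma, adjusted p = 0.556), with mTERT WT 3 below mTR WT 2. Inpp5f differed by −0.21 ± 0.08 (limma, adjusted p = 0.645), with all mTERT WT below all mTR WT cultures. Mest had the largest difference in size, −1.09 ± 0.70, with overlapping groups (limma, adjusted p = 0.823). The macrophage list stood higher in mTERT WT than in mTR WT on average, with 14 of 14 differences above 0 (median 0.83), and its part was not tested. These wild types also served as the controls of the knockout comparisons, so the values are not independent of those.

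**Figure D5:**
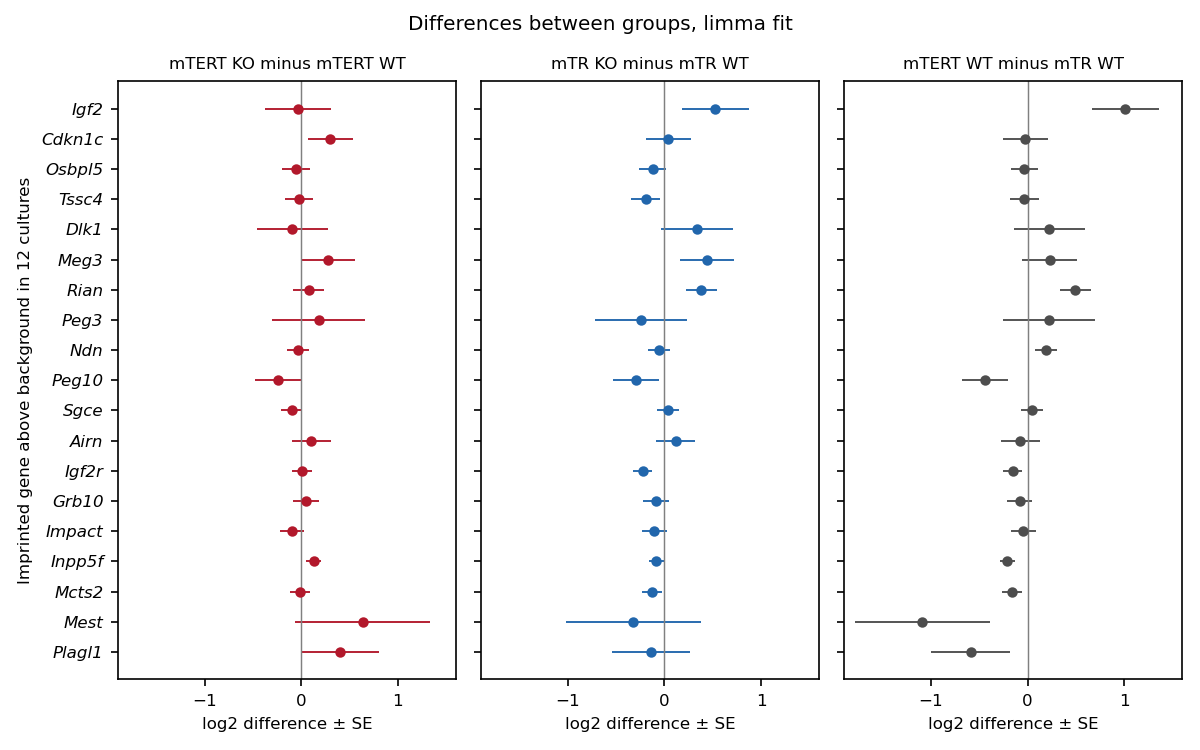
Log2 differences ± SE of the limma fit (horizontal axis; mTERT KO minus mTERT WT, mTR KO minus mTR WT, mTERT WT minus mTR WT) for the 19 imprinted genes above background throughout (rows), n = 3 cultures per group. None passed the test; Igf2 at 1.01 and Mest at −1.09 between the wild types had the largest sizes, and Mest and Plagl1 had wide errors.

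By parental origin, 10 of the 19 paternally expressed genes had a difference above 0 for loss of mTERT (median 0.00) and 10 for loss of mTR (median 0.01). Among the 14 maternally expressed genes these counts were 11 (median 0.06) and 7 (median 0.00). Over all 28853 probe sets, 14588 differences were above 0 for loss of mTERT and 14521 for loss of mTR, and 0 genes of either origin passed with limma in either comparison.

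Lists of related genes were set beside the 33. Of 20 genes that maintain imprints or methylate DNA, 0 passed with limma in either knockout comparison, and 1 in the mTERT line (5% of the list, 1.92% of all probe sets) and 0 in the mTR line (5.82% of all) had an unadjusted p below 0.05; the 1 was Ctcfl, at background in every culture. Ezh2, the Polycomb methyltransferase, differed by 0.18 ± 0.08 in the mean of both knockout effects (limma, adjusted p = 0.985). Of 18 further imprinted genes 0 passed with limma, and 0 in the mTERT line (1.92% of all probe sets) and 1 in the mTR line had an unadjusted p below 0.05, a share of 5.56%, close to the 5.82% of all. The 1, H13, a signal peptide peptidase gene, read 9.53, 9.77 and 9.85 in mTR KO, against 9.92, 10.00 and 10.02 in mTR WT cultures (−0.26 ± 0.12, limma, adjusted p = 0.839).

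Among 15 genes of the IGF axis 0 passed with limma in either knockout comparison, and 0 in the mTERT line (1.92% of all probe sets) and 3 in the mTR line (20% of the list, 5.82% of all) had an unadjusted p below 0.05, all 3 lower in mTR KO. Irs2, an adaptor of the insulin and IGF receptors, read 6.56, 6.23 and 6.33 in mTR KO, against 6.90, 6.91 and 6.62 in mTR WT cultures (−0.44 ± 0.17, limma, adjusted p = 0.839). Igf1r, the receptor that transmits the IGF2 signal, read 9.68, 9.69 and 10.05 in mTR KO, against 10.16, 9.91 and 10.21 in mTR WT cultures (−0.29 ± 0.11, limma, adjusted p = 0.839). Igf2bp1, an RNA-binding protein that binds Igf2 transcripts, read 7.89, 7.88 and 8.28 in mTR KO, against 8.32, 8.38 and 8.35 in mTR WT cultures (−0.33 ± 0.15, limma, adjusted p = 0.839). Irs2 and Igf2bp1 did not overlap between the groups (13.3% of the list, 11.4% of all probe sets), and Irs2 was also higher in mTR WT than in any culture of the mTERT line. The median differences of the list were 0.00 in the mTERT and −0.10 in the mTR line, against 0.00 over all probe sets in each.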

How the data were processed

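Messenger RNA was measured in 12 fibroblast cultures, 1 array each. The authors deposited 1 log2 signal per probe set and array. GCOS 1.4, Affymetrix Expression Console and PLIER are named, without a role, per the submitters' processing notes. How arrays were normalized, and the genome build, are not given in the sources used here. Quantiles of the columns differed by at most 0.084, so values were used as deposited. The number of arrays limits the precision.

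Probe sets were named through the platform annotation (21789 with 1 gene symbol, 1621 with several, 5443 with none) and checked by gene ID against RefSeq, GRCm38.p6. Each measured member had 1 such probe set; genes of other lists were represented by the brightest. A model of 4 group means was fitted to all probe sets with limma 3.58.1 in R 4.3.3 (8 residual and 3.14 prior degrees of freedom), with Benjamini-Hochberg adjustment over all of them and no filter. It was tested on simulated arrays drawn independently of each other. They lacked the deviations that same-numbered mTERT cultures share, so the simulation does not show how the fit behaves with these. Correlations used deviations from group means and all 1296 permutations within groups. Figures were drawn with matplotlib 3.10.9.

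Numbers were taken to pair cultures where same-numbered deviations correlated above 0.1 in every pair, which held in the mTERT line alone. Genes given in full were Igf2, Dlk1 and Meg3, the 3 smallest p values of each contrast and the 6 widest ranges; others were chosen after their values were seen. Per the series text, knockout and wild-type embryos were littermates, but no label says that a number marks a litter. The members, lists and domains were chosen with earlier results of these data known. Alternatives were other normalizations, a mean over probe sets, a filter on dim probe sets, blocks, variance models, fits of the compared groups alone and the omission of each culture.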

Additional observations from a re-analysis of the deposited data

How the results depend on the processing

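In every contrast the number of members past the adjusted threshold stayed at 0 of 33 under every alternative run: quantile normalization, median centring, a mean over probe sets (the same values, since each member has 1), removal of dim probe sets, fixed and random blocks, a trended and robust variance, the compared groups alone and the omission of each culture. No alternative of another normalization, filter or block moved the median difference of the members by more than 0.12, the SD of that median between cultures of a group, and with single cultures left out it ran from −0.02 to 0.09 for the mTERT, −0.04 to 0.02 for the mTR, −0.01 to 0.04 for the mean, −0.08 to 0.01 for the difference and −0.05 to 0.04 for the wild-type contrast. The replicate block within lines left the calls at 0. With it, 3 of 33 members had an unadjusted p below 0.05 in the mTERT contrast (2.73% of all probe sets) and 6 in the mTR contrast (8.49%). Without it these counts were 0 (1.92%) and 2 (5.82%). For the mean and difference contrasts they were 3 and 4 with the block, against 0 and 0 without it (4.09% and 3.34%). No share over all probe sets with the block is given for these 2 contrasts, so their counts are not read further. The mTR numbers are not known to pair. With the numbers moved together in the permutation, the replicate block, the pair Meg3 and Rian (r = 0.837) lost its call (adjusted p = 0.139), because only 36 arrangements remain. The pair Dlk1 and Meg3 turned to −0.217 without the 2 farthest cultures, and with single cultures left out it ran from −0.181 to 0.286; the cause was not tested. With single cultures left out r ran from 0.772 to 0.905 for Meg3 and Rian, 0.081 to 0.620 for Peg3 and Usp29, −0.841 to −0.537 for Peg10 and Sgce and 0.0928 to 0.801 for Ndn and Magel2. Members above background in all cultures numbered 21 at the 90th and 19 at the 99th percentile of odorant receptors and 19 after quantile normalization, against 19. The small number of cultures limits the precision: without the number as a block the SE was 0.70 for Mest and 0.41 for Plagl1 in the mTERT line, and with it, in the mTERT arrays alone, 0.11 for each, and neither passed the adjusted threshold in either fit (limma, smallest adjusted p 0.294 and 0.680).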

Other observations

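Nnat, a paternally expressed proteolipid gene known from brain, was above background in 11 of 12 cultures. It read 5.23, 5.12 and 5.76 in mTERT KO cultures 1 to 3, against 5.21, 5.72 and 6.03 in mTERT WT cultures, and 5.00, 5.35 and 5.57 in mTR KO cultures, against 5.29, 5.28 and 4.91 in mTR WT cultures. Knockouts overlapped with wild types in both lines (limma, adjusted p = 1 and 0.927).

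Nap1l5, a paternally expressed gene of the nucleosome assembly family, read 5.41, 5.09 and 4.99 in mTERT KO cultures 1 to 3, against 5.48, 4.96 and 4.94 in mTERT WT cultures, and 5.36, 4.96 and 4.84 in mTR KO cultures, against 4.95, 5.10 and 4.89 in mTR WT cultures. It was highest in both mTERT cultures of number 1 and in mTR KO 1, the 3 cultures that were also the highest for Dlk1, and was above background in 5 cultures in all.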
